A study of Homo sapiens with 21 samples.

Results

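Wnt antagonists and Wnt response genes were followed here as a set of 10 genes, DKK1, DKK2, DKK3, SFRP1, DACT2, WNT5A, LEF1, TCF7, AXIN2 and LGR5, among 57820 genes in the table. The members were chosen by symbol, with earlier results of these data known. All 10 were present and above the level taken as measured, log2(10) or 3.32. RNA was sequenced from A673, an established Ewing sarcoma cell line, in 21 libraries of 5 groups, and every group rests on this 1 line. Control cells (n = 4, replicates 1, 2, 3 and 5) carried RNAi against luciferase and an empty pMSCV-hygro vector. Knockdown cells (n = 5, replicates 1 to 5) carried the RNAi named EF-2, against EWS/FLI, the fusion oncogene of this tumour, and the same empty vector. The 3 rescue groups also carried the EWS/FLI RNAi, with a vector for full-length type IV EWS/FLI (wild-type rescue, n = 5, replicates 1 to 5), the delta 22 mutant (n = 4, replicates 1 to 4) or the mut9 mutant (n = 3, replicates 3 to 5). The first infection was selected for 4 days before the second vector was added, and the question in the title is the role of the EWS portion at GGAA repeats.

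In canonical Wnt signalling a secreted Wnt protein engages a Frizzled receptor with LRP5 or LRP6, beta-catenin escapes its destruction complex, and TCF/LEF factors turn on target genes. The Dickkopf proteins (DKK) DKK1 and DKK2 and secreted Frizzled-related proteins (SFRP) act outside the cell, the former on the LRP co-receptors and the latter largely on the ligands. AXIN2 is both a destruction complex scaffold and a standard target gene, so its level is often used as a readout, and R-spondins act through LGR receptors to keep Frizzled at the surface. In Ewing sarcoma, DKK1 and DKK2 are known as family members with opposite relations to the fusion.

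The RefSeq promoter table (GRCh38.p14, windows of 300 bases around a gene's start) matched 5 members with 7 windows: DKK1, DACT2, LEF1, and both WNT5A and TCF7 with more than 1 start. DKK2, DKK3, SFRP1, AXIN2 and LGR5 had no entry matched. Windows are shown for 3 members that differ in their response described below, DKK1 and TCF7 (higher in knockdown) and DACT2 (highest in wild-type rescue), because the study concerns GGAA repeats. Sequences run 5′ to 3′ on the gene's strand, and capitals mark GGAA or its complement TTCC. The windows lie at chr10:52314031-52314330 (plus strand) for DKK1, chr6:168319728-168320027 (minus strand) for DACT2 and chr5:134115363-134115662 (plus strand) for the first TCF7 start.
DKK1: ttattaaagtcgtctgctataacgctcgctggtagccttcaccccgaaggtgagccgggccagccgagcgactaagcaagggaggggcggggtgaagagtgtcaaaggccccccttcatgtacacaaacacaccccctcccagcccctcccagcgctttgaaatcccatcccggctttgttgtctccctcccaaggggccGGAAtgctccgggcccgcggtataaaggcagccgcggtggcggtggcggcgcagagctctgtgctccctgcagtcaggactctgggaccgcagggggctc
DACT2: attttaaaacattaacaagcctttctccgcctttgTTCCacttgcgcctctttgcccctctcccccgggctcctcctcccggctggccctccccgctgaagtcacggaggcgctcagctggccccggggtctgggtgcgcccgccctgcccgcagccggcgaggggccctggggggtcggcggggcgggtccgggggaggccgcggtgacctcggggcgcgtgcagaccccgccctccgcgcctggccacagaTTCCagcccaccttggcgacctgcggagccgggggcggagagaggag
TCF7: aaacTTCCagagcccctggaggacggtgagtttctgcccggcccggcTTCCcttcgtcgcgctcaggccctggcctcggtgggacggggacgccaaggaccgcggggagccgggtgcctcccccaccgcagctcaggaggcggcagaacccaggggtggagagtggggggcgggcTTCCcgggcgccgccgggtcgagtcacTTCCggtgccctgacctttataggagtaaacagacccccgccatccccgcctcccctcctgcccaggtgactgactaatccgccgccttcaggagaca
On both strands, the repeat GGAAGGAA was found in 0 of the 7 windows, against 3.68% of 34943 promoters of the same length. Each GGAAGGAA match also holds GGAA matches, and GGAA alone was in 95.4% of promoters with a median count of 3. It occurred once in the DKK1 window, 2 times in DACT2, 5 times in LEF1, 7 and 4 times in the WNT5A windows and 4 and 3 times in the TCF7 windows. Of the TCF/LEF motif only the exact letters CTTTGAT were searched, found in 0 of the 7 windows and in 2.63% of all promoters. Variants of it were not counted, and the DKK1 and DACT2 windows above hold CTTTGTT. These are matches of letters in short windows, and sites farther away were not searched.

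Values are the authors' normalized log2 values, a log2 difference of 1 being a doubling. Differences are given with the standard error of limma, and a gene is said to have risen or fallen where limma's adjusted p (Benjamini-Hochberg over 18040 tested genes, 2-sided) was under 0.05. The labels do not say that replicates came from separate cultures, so each p covers only the variation between these libraries, which can be technical. Between 16708 and 17326 genes per library reached log2(10), and the read depth is unknown because these values keep no totals. FLI1, whose 3′ part is in the fusion, averaged 11.64 in control, 9.77 in knockdown, 10.47 in wild-type rescue, 11.27 in delta 22 rescue and 10.23 in mut9 rescue, so the knockdown label held. It was higher in delta 22 than in wild-type rescue (0.80, limma adjusted p = 9.63e-07), and the part of this in differences between the rescues was not tested. Ewing sarcoma markers were present for 6 of 7 genes, while CD99 was listed at 0 in all 21 libraries. The summed linear level of that list ran from 34103 to 35139 in control, 3023 to 7085 in knockdown, 26824 to 40557 in wild-type rescue, 2471 to 4373 in delta 22 rescue and 32938 to 40307 in mut9 rescue, and all 6 measured markers fell with knockdown. Of the endothelial markers, 3 of 4 matched genes were tested and 2 rose with knockdown (summed level 49.3 to 83.8 in control, 464 to 1234 in knockdown, 219 to 461 in wild-type rescue, 1627 to 2403 in delta 22 rescue and 345 to 398 in mut9 rescue). KDR made up most of that sum, with means from 5.55 in control to 10.91 in delta 22 rescue, while group means of TEK lay between -0.10 and 0.22. VWF was higher in knockdown (3.72 against 2.34 in control, limma adjusted p = 1.07e-06), and CDH5 was higher in delta 22 rescue (4.49) than in knockdown (3.42, adjusted p = 0.0389). Blood markers (2 of 5 tested, 1 higher in knockdown) summed to 24.5 to 35.7 in control, 56.0 to 113.9 in knockdown, 32.7 to 43.4 in wild-type rescue, 59.6 to 149.8 in delta 22 rescue and 105.1 to 130.9 in mut9 rescue, with HBB listed at 0 and CD3E below 0 on average in every group. Epithelial markers (2 of 5 tested, both higher in knockdown) summed to 24.3 to 36.8, 42.1 to 57.3, 18.4 to 25.3, 29.7 to 62.5 and 22.0 to 26.4 in the same order, with CDH1 and KRT5 below 0. The part of these shifts in the results below was not tested. In bulk RNA, fewer cells of a type and less RNA per cell cannot be told apart.

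**Figure D1:**
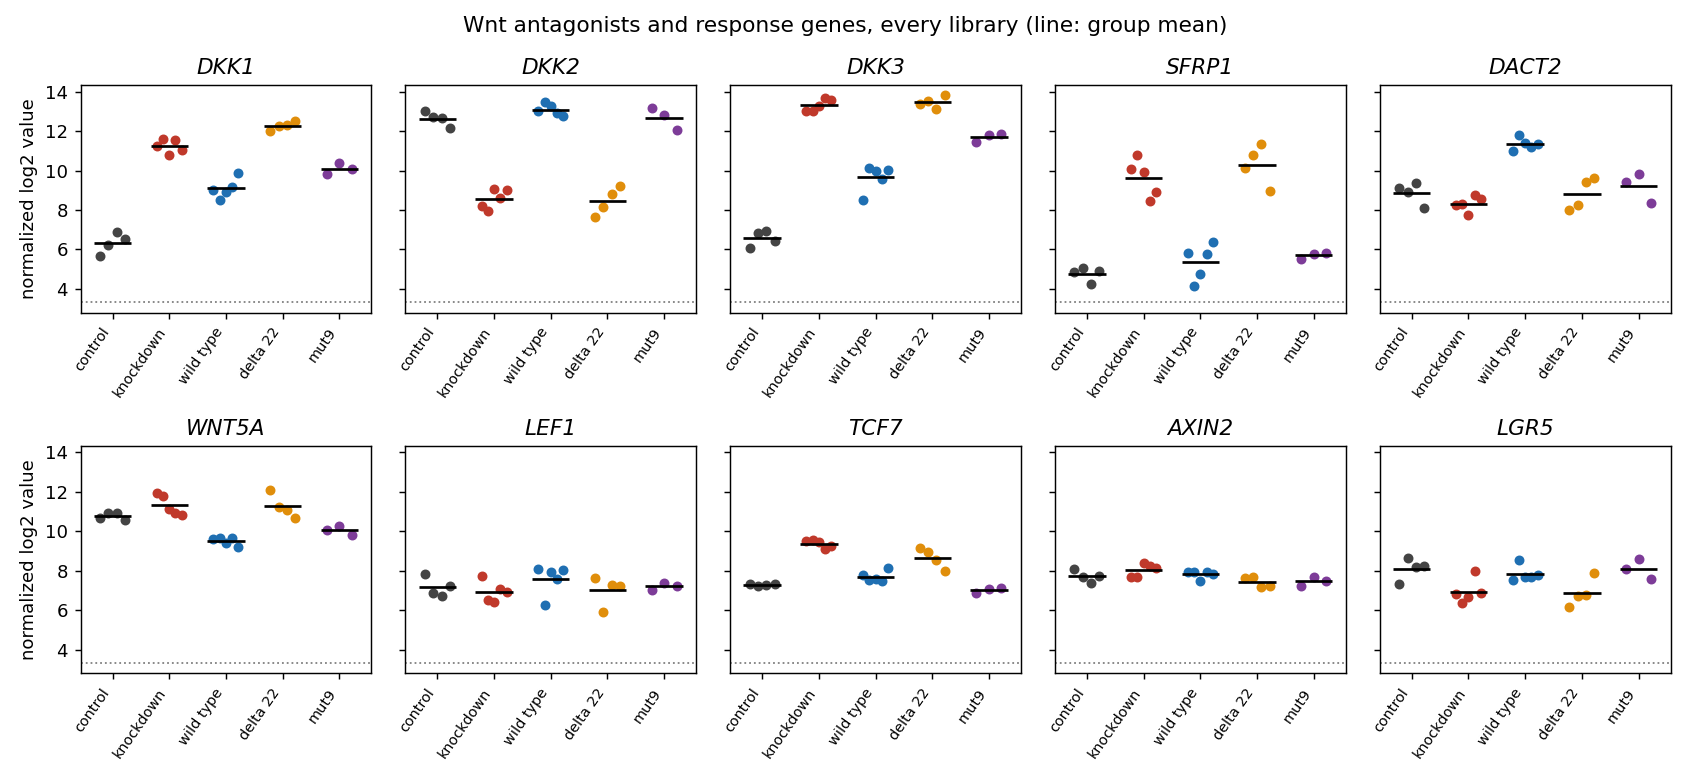
Normalized log2 value (vertical axis) of each of the 10 genes in every library (points), by group (horizontal axis), with a line at the group mean and a dotted line at log2(10), 3.32. DKK1, DKK3 and SFRP1 are high in the knockdown and delta 22 libraries, DKK2 is low there, and LEF1 and AXIN2 overlap between all groups.

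Knockdown of EWS/FLI moved the members in opposite directions. DKK1, DKK3, SFRP1 and TCF7 rose, WNT5A rose by a call that most alternatives ended, and DKK2 and LGR5 fell, while DACT2, LEF1 and AXIN2 did not pass the test. That makes 5 members higher and 2 lower of 10, where 35.5% of all tested genes were called higher and 34% lower, so the number of calls is close to the background. Median differences were 0.43 for the members and -0.01 for all genes. Because the members were chosen with earlier results of these data known, no support is drawn from their medians, here or below. The balance over all genes depends on scaling: 51.1% of calls were higher, and 36.1% with median centring and 38% with quantile normalization, which shift the median of all genes to -0.24 and -0.20.

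DKK1, the founding Dickkopf antagonist, was low in control and high in knockdown. Control values were 5.67, 6.21, 6.88 and 6.54, and knockdown values 11.25, 11.59, 10.77, 11.56 and 11.02. Wild-type rescue gave 9.03, 8.51, 8.90, 9.15 and 9.88, delta 22 rescue 11.99, 12.26, 12.29 and 12.50, and mut9 rescue 9.81, 10.39 and 10.08. Control libraries were lowest and delta 22 libraries highest, with no overlap between any groups except wild-type and mut9 rescue, which overlapped at 9.81 to 9.88. Knockdown raised DKK1 by 4.91 ± 0.25 (30.1-fold, limma adjusted p = 2.35e-12), and the rise was between 3.88 and 5.58 in each of the 4 batches that hold both groups. Wild-type EWS/FLI lowered it from there by 2.14 (difference -2.14 ± 0.23, adjusted p = 1.81e-07), which left it 2.77 ± 0.25 above control (adjusted p = 1.2e-07). From high to low the order was delta 22 rescue, knockdown, mut9 rescue, wild-type rescue and control, and each pair of neighbours passed the test.

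DKK3, a divergent Dickkopf relative often silenced in tumours, had the largest knockdown difference of the 10 genes. It stood at 6.07, 6.85, 6.95 and 6.43 in control and at 13.03, 13.04, 13.28, 13.66 and 13.58 in knockdown. Values with the wild-type construct were 8.50, 10.15, 9.99, 9.59 and 10.04, with delta 22 13.38, 13.54, 13.12 and 13.81, and with mut9 11.45, 11.82 and 11.83. Knockdown and delta 22 libraries overlapped, and control, wild-type and mut9 rescue each formed a separate step below them. The knockdown difference was 6.74 ± 0.27 (107-fold, limma adjusted p = 1.08e-13). Wild-type rescue lowered it from the knockdown level (-3.66 ± 0.25, adjusted p = 3.65e-10), and mut9 rescue by less (-1.62 ± 0.29, adjusted p = 0.000131). Of the neighbours in the order of levels, delta 22 rescue and knockdown did not differ beyond their spread (0.15, 95% interval -0.41 to 0.70), and the other neighbours did.

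SFRP1, a secreted decoy for Wnt ligands, followed the same direction but came back further. Its control values were 4.87, 5.04, 4.24 and 4.92, not far above the level taken as measured, and its knockdown values 10.06, 10.77, 9.92, 8.45 and 8.90. It was at 5.83, 4.14, 4.76, 5.77 and 6.39 in wild-type rescue, at 10.11, 10.79, 11.37 and 8.94 in delta 22 rescue and at 5.53, 5.76 and 5.81 in mut9 rescue. High (knockdown, delta 22) and low (control, wild-type, mut9) libraries were separated by more than 2 log2 units, the lowest of the high at 8.45 and the highest of the low at 6.39. Knockdown raised SFRP1 by 4.85 ± 0.50 (28.9-fold, limma adjusted p = 4.29e-08), and wild-type rescue lowered it from there (-4.24 ± 0.47, adjusted p = 2.05e-07), as did mut9 rescue (-3.92 ± 0.54, adjusted p = 7.34e-06). Neither rescue then differed from control by the test (wild-type 0.61, 95% interval -0.43 to 1.65, and mut9 0.93, interval -0.25 to 2.11). With only the compared groups in the fit, mut9 rescue was above control (0.93, adjusted p = 0.00641).

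DKK2 ran the other way from its relatives. This Dickkopf can inhibit or activate the pathway depending on the co-receptor context. Control libraries held 13.02, 12.73, 12.66 and 12.13, against 8.22, 7.93, 9.08, 8.63 and 9.01 after knockdown. With wild-type EWS/FLI DKK2 was at 13.03, 13.46, 13.27, 12.92 and 12.75, with delta 22 at 7.64, 8.13, 8.82 and 9.22, and with mut9 at 13.16, 12.80 and 12.07. The control, wild-type and mut9 libraries overlapped at the top, the knockdown and delta 22 libraries overlapped at the bottom, and a wide gap lay between. Knockdown changed DKK2 by -4.06 ± 0.30 (16.7-fold lower, limma adjusted p = 4.46e-10). Wild-type rescue raised it by 4.51 ± 0.28 (22.8-fold, adjusted p = 1.25e-10), mut9 rescue raised it by 4.10 ± 0.33 (17.2-fold, adjusted p = 8.46e-09), and delta 22 did not pass (-0.12, interval -0.75 to 0.51, adjusted p = 0.876). In the order of levels, wild-type rescue, mut9 rescue, control, knockdown and delta 22 rescue, control and knockdown were the only neighbours that differed.

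DACT2, a cytoplasmic regulator that binds Dishevelled, differed from the secreted antagonists. Values were 9.12, 8.92, 9.37 and 8.09 in control, and 8.25, 8.31, 7.72, 8.74 and 8.55 in knockdown. Wild-type rescue gave 11.00, 11.79, 11.40, 11.20 and 11.35, delta 22 rescue 8.02, 8.25, 9.395 and 9.60, and mut9 rescue 9.43, 9.82 and 8.36. Every wild-type library was above every other library, and the remaining 4 groups overlapped. Knockdown minus control was -0.56 ± 0.34 (limma adjusted p = 0.151). That difference passed as a fall with median centring (-0.79, adjusted p = 0.0359), with quantile normalization (-0.82, adjusted p = 0.0328) and without control replicate 5 (-0.82, adjusted p = 0.0452). Wild-type EWS/FLI raised DACT2 by 3.03 ± 0.32 over knockdown (8.19-fold, adjusted p = 1.16e-07) and to 2.47 ± 0.34 above control (5.56-fold, adjusted p = 1.54e-05). The mut9 construct gave 0.89 ± 0.37 over knockdown (adjusted p = 0.0543), which was called under 6 of the alternatives (adjusted p from 0.00538 with array weights), among them without mut9 replicate 5 (1.31, adjusted p = 0.0106) and without knockdown replicate 4 (0.99). It was lower in mut9 than in wild-type rescue (-2.15 ± 0.37, adjusted p = 0.000665).

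WNT5A, a ligand best known for beta-catenin-independent signalling, was the one Wnt ligand in the set. Control values were 10.70, 10.91, 10.92 and 10.56, and knockdown values 11.95, 11.77, 11.14, 10.92 and 10.83. Wild-type rescue gave 9.59, 9.64, 9.405, 9.65 and 9.21, delta 22 rescue 12.08, 11.23, 11.05 and 10.68, and mut9 rescue 10.04, 10.28 and 9.80. All wild-type and mut9 libraries were below all others and did not overlap each other, while control overlapped the lower knockdown and delta 22 libraries. The knockdown rise of 0.55 ± 0.24 only just passed (limma adjusted p = 0.0467). It was lost without control replicate 1 (0.53), 2 (0.60), 3 (0.60) or 5 (0.48) and without knockdown replicate 1 (0.39) or 2 (0.44), and under 5 of the 8 other alternatives, namely without the filter on low values (0.55, adjusted p = 0.0744), with median centring (0.32, adjusted p = 0.252), quantile normalization (0.41, adjusted p = 0.131) or array weights (0.42, adjusted p = 0.0546), and in batches 3 to 5 alone (0.22, adjusted p = 0.315). The fall with wild-type rescue was larger (-1.82 ± 0.23, 3.54-fold lower than knockdown, adjusted p = 9.28e-07) and took WNT5A below control (-1.27 ± 0.24, adjusted p = 0.000366). Mut9 also lowered it from the knockdown level (-1.28 ± 0.26, adjusted p = 0.000442). Mut9 rescue was below control by the test (-0.73, adjusted p = 0.0369), a call lost with the batch as a block (-0.48, adjusted p = 0.0896), without the filter (adjusted p = 0.0637) and without control replicate 1 (-0.76), 2 (-0.69) or 3 (-0.68) or mut9 replicate 3 (-0.73) or 5 (-0.61). Mut9 minus wild-type rescue was 0.54 and did not pass (adjusted p = 0.161), but it passed under 4 of the 8 alternatives other than leaving out a library: with the batch as a block (0.74, adjusted p = 0.0189), with only the compared groups (0.54, adjusted p = 0.0322), with array weights (0.58, adjusted p = 0.0491) and in batches 3 to 5 (0.62, adjusted p = 0.0364).

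TCF7 encodes TCF-1, a nuclear partner of beta-catenin that is also a target of the pathway. The 4 control libraries were close together, at 7.33, 7.20, 7.25 and 7.30, and the knockdown libraries at 9.51, 9.56, 9.45, 9.08 and 9.25. TCF7 was at 7.78, 7.54, 7.59, 7.47 and 8.14 in wild-type rescue, at 9.17, 8.93, 8.55 and 7.99 in delta 22 rescue and at 6.86, 7.08 and 7.14 in mut9 rescue. Knockdown libraries were high, delta 22 libraries spread down into the wild-type range, and mut9 libraries were lowest, below all control libraries. Knockdown raised TCF7 by 2.10 ± 0.18 (4.29-fold, limma adjusted p = 4.98e-09). Wild-type rescue lowered it (-1.66 ± 0.17, adjusted p = 9.47e-08) and mut9 rescue by more (-2.34 ± 0.20, adjusted p = 1.96e-08). Mut9 rescue was below wild-type rescue (-0.68 ± 0.20, adjusted p = 0.0229), a call lost without wild-type replicate 5 (-0.57) and without mut9 replicate 3 (-0.60) or 4 (-0.71). Wild-type rescue minus control was 0.44 (adjusted p = 0.0659), and 0.51 with the batch as a block (adjusted p = 0.0133), and it also passed with only the compared groups (0.44, adjusted p = 0.0389) and with array weights (0.42, adjusted p = 0.0419). Mut9 rescue minus control was -0.24 (adjusted p = 0.373), and -0.59 with quantile normalization (adjusted p = 0.0356).

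LEF1, another nuclear partner of beta-catenin, gave no call in any of the 10 comparisons. It was at 7.82, 6.89, 6.73 and 7.20 in control and at 7.75, 6.52, 6.41, 7.08 and 6.90 in knockdown. Wild-type rescue gave 8.11, 6.28, 7.95, 7.57 and 8.03, delta 22 rescue 7.61, 5.91, 7.30 and 7.21, and mut9 rescue 7.02, 7.38 and 7.25. All groups overlapped. By labelled batch the values ran from 7.61 to 8.11 in batch 1, 5.91 to 6.89 in batch 2, 6.41 to 7.95 in batch 3, 7.08 to 7.57 in batch 4 and 6.90 to 8.03 in batch 5, so batches 1 and 2 were apart from each other while batches 3 and 5 were wide. Knockdown minus control was -0.22 ± 0.38 (95% interval -1.01 to 0.56). Wild-type rescue minus knockdown was 0.65 ± 0.35 (limma adjusted p = 0.115) and with the batch as a block 0.65 ± 0.22 (adjusted p = 0.0139). That difference also passed with quantile normalization (0.86, adjusted p = 0.0388), without knockdown replicate 1 (0.86) and without wild-type replicate 2 (0.98), and in batches 3 to 5 (1.05, adjusted p = 0.00149), as did wild-type rescue minus control there (0.89, adjusted p = 0.0164). Within batches it was above 0 in 4 of 5, from -0.24 in batch 2 to 1.53 in batch 3. Delta 22 minus wild-type rescue was -0.58 (adjusted p = 0.188), and -0.55 with the block (adjusted p = 0.0482), or -0.91 without wild-type replicate 2.

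**Figure D2:**
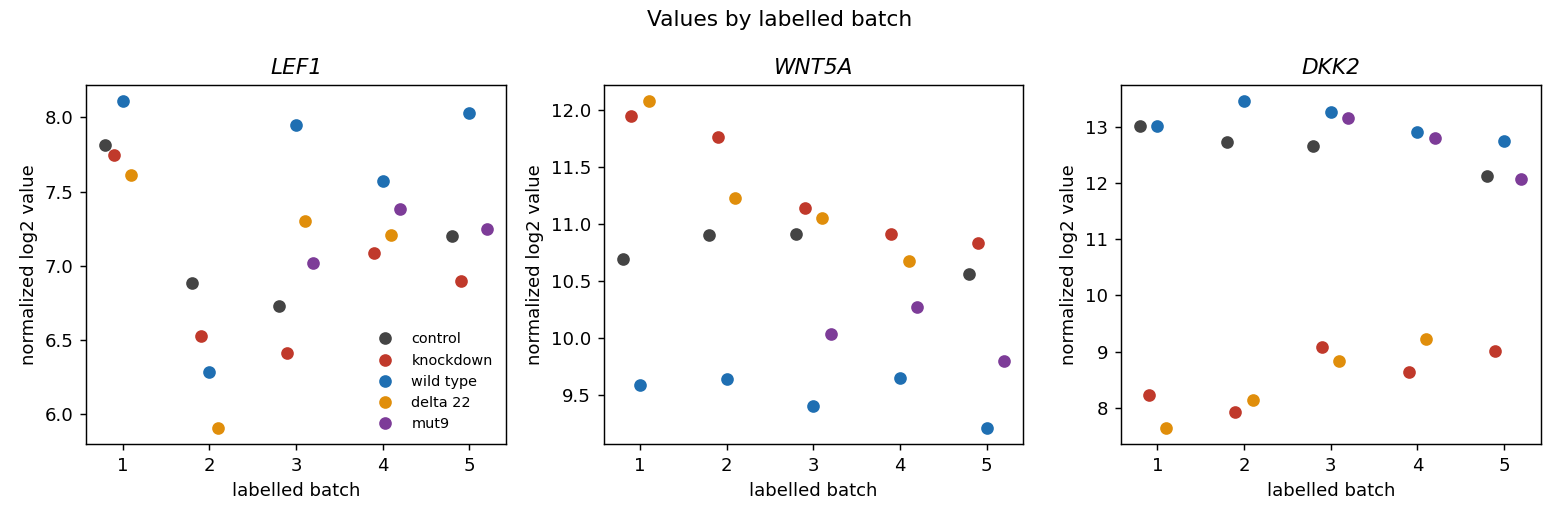
Normalized log2 values of LEF1, WNT5A and DKK2 (vertical axes, not starting at 0) against the labelled batch 1 to 5 (horizontal axes), points coloured by group and set slightly apart within a batch. LEF1 of batch 2 lies below batch 1 in all 4 groups, but batch 3 is lower still in control and knockdown. WNT5A in knockdown is highest in batch 1 (11.95) and lowest in batch 5 (10.83), and DKK2 keeps its gap between groups in each batch.

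AXIN2, the scaffold used as a readout of canonical signalling, was nearly level. Control libraries held 8.08, 7.66, 7.38 and 7.73, and knockdown libraries 7.70, 7.66, 8.37, 8.25 and 8.12. The rescues gave 7.95, 7.91, 7.46, 7.95 and 7.82 with wild type, 7.62, 7.69, 7.16 and 7.24 with delta 22 and 7.25, 7.70 and 7.46 with mut9. All 5 groups overlapped, and none of the neighbours in the order of levels differed. Knockdown minus control was 0.31 ± 0.18 (95% interval -0.06 to 0.67, limma adjusted p = 0.126), that is, at most 0.67 at this interval. It passed as a rise without control replicate 1 (0.43, adjusted p = 0.0447), with array weights (0.46, adjusted p = 0.0128) and in batches 3 to 5 (0.69, adjusted p = 0.00851). Wild-type rescue minus knockdown did not pass (adjusted p = 0.295). Under the 8 alternatives other than leaving out a library that difference ran from -0.50 to -0.02, and it passed as a fall under 1 of them (adjusted p = 0.0288). Mut9 rescue was lower than knockdown (-0.55 ± 0.19, adjusted p = 0.0212), a call lost without knockdown replicate 3 (-0.47) and without mut9 replicate 3 (-0.44) or 5 (-0.55). Delta 22 minus knockdown was -0.59 ± 0.18 (adjusted p = 0.059), and passed without knockdown replicate 1 (-0.67) or 2 (-0.68). Delta 22 minus wild-type rescue (-0.39, adjusted p = 0.0607) passed with median centring (-0.52) and quantile normalization (-0.53), in batches 3 to 5 (-0.54), and without wild-type replicate 3 (-0.48) or delta 22 replicate 1 (-0.45) or 2 (-0.48).

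LGR5, an R-spondin receptor and stem cell marker that is also a pathway target, moved with DKK2 in direction and by less. It was at 7.32, 8.64, 8.20 and 8.25 in control and at 6.83, 6.36, 6.67, 7.96 and 6.87 in knockdown. Values were 7.53, 8.56, 7.66, 7.70 and 7.76 with wild type, 6.17, 6.73, 6.76 and 7.86 with delta 22 and 8.07, 8.62 and 7.56 with mut9. Most knockdown and delta 22 libraries were below 7, but replicate 4 of each stood near 8, so the groups overlapped. Knockdown lowered LGR5 (-1.16 ± 0.35, 2.24-fold, limma adjusted p = 0.00613), in each of 4 batches (-2.28 to -0.49). Wild-type rescue raised it by 0.91 ± 0.33 (adjusted p = 0.023), which did not hold when knockdown replicate 2 (0.76), knockdown replicate 3 (0.84) or wild-type replicate 2 (0.73) was left out. Mut9 rescue raised it by 1.14 ± 0.38 (adjusted p = 0.0181), a call lost without mut9 replicate 4 (0.88, adjusted p = 0.114). With array weights the wild-type rise did not pass (0.81, adjusted p = 0.0556). Within batches the wild-type difference from knockdown was above 0 in 4 of 5, and ran from -0.26 to 2.21. In batches 3 to 5 alone neither rise passed (wild type 0.54, adjusted p = 0.245, and mut9 0.92, adjusted p = 0.0665).

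**Figure D3:**
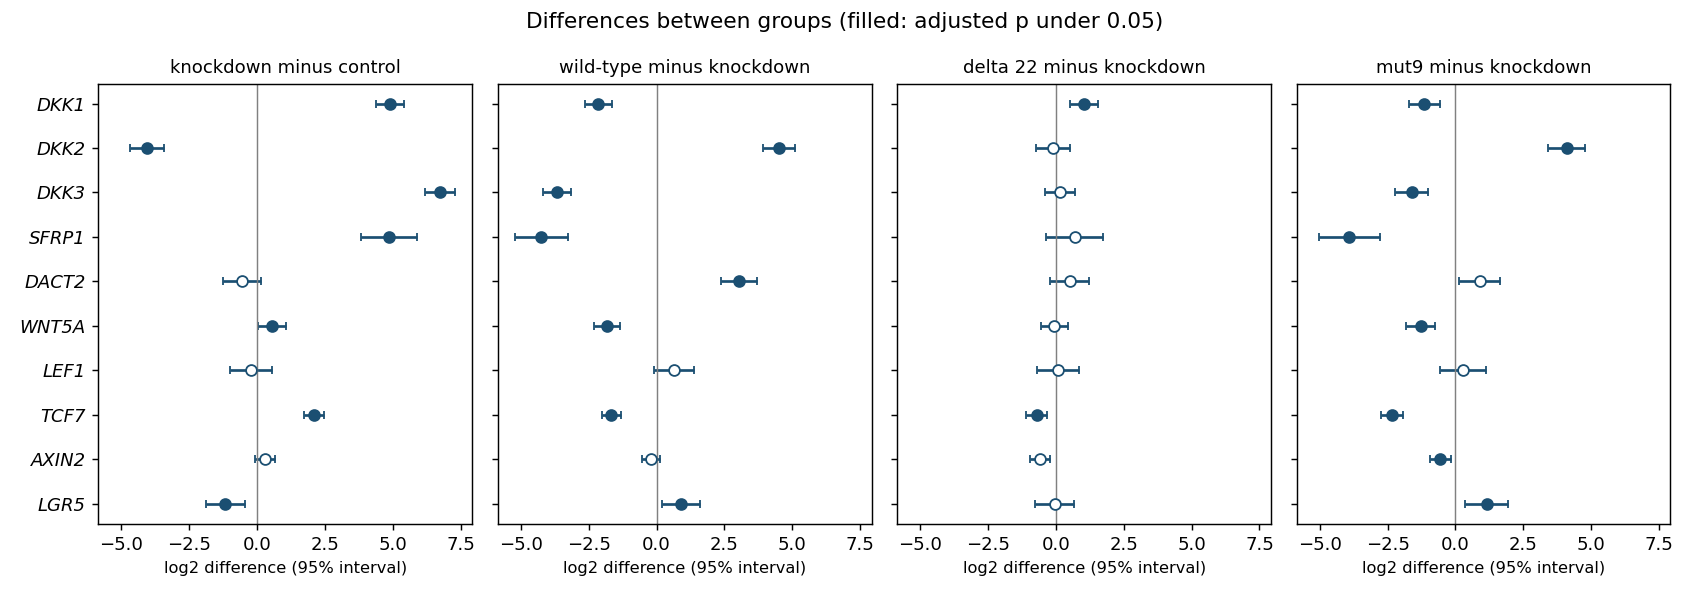
Log2 difference (horizontal axis) of each of the 10 genes (vertical axis) in 4 comparisons (panels), with 95% intervals, filled where limma's adjusted p was under 0.05. DKK3 rises by 6.74 and DKK2 changes by -4.06 with knockdown, the wild-type and mut9 panels show the opposite signs for both, and most intervals of the delta 22 panel include 0.

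Putting wild-type EWS/FLI back raised 3 members (DKK2, DACT2, LGR5) and lowered 5 (DKK1, DKK3, SFRP1, WNT5A, TCF7). Of all genes 29.6% were higher and 32.3% lower in this comparison, with a median difference of 0.01 against -0.93 for the members. Over all genes 47.8% of calls were higher, and 62.8% with median centring and 59.5% with quantile normalization (median shifts of 0.16 and 0.12). Wild-type rescue minus control had 3 members higher (DKK1, DKK3, DACT2) and 1 lower (WNT5A), where 21.3% of genes were higher and 18.3% lower. That share of higher calls was 53.7%, and 40.6% and 42.7% with the same scalings, under which the 4 member calls held. Wild-type rescue took DKK2, SFRP1, TCF7 and LGR5 to where they no longer differed from control by the test. For TCF7 a difference from control passed under 3 alternatives, and for LGR5 the rise over knockdown was lost under 5. Wild-type rescue left DKK1 and DKK3 part of the way, and carried DACT2 and WNT5A past control.

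With the delta 22 mutant, 8 of the 10 members did not pass the test against knockdown. Only DKK1 was higher (1.03 ± 0.25, limma adjusted p = 0.0222, higher in 4 of 4 batches) and only TCF7 lower (-0.71 ± 0.18, adjusted p = 0.0316, lower in 4 of 4 batches), where 2.24% of all genes were higher and 2.26% lower. The DKK1 call was lost without knockdown replicate 3 (0.91) or 5 (0.97) and without delta 22 replicate 2 (1.03) or 4 (0.95), and in batches 3 to 5 (1.28, adjusted p = 0.095). TCF7 no longer passed without knockdown replicate 1 (-0.67), 2 (-0.66), 3 (-0.69) or 5 (-0.74) or delta 22 replicate 3 (-0.67) or 4 (-0.48), the last being the lowest delta 22 library at 7.99. It was also lost without the filter (-0.71, adjusted p = 0.0507), with quantile normalization (-0.70, adjusted p = 0.0562), with only the compared groups (-0.71, adjusted p = 0.131) and in batches 3 to 5 (-0.99, adjusted p = 0.0928). Over all genes 811 were called, and 1292 with the batch as a block, where both member calls held. Of the calls 49.8% were higher, and 60.3% with median centring. For members not called, the 95% intervals ran from -0.75 to 0.51 for DKK2, -0.41 to 0.70 for DKK3, -0.56 to 0.44 for WNT5A, -0.79 to 0.68 for LGR5, -0.71 to 0.86 for LEF1, -0.21 to 1.21 for DACT2 and -0.35 to 1.72 for SFRP1. The interval of AXIN2, -0.96 to -0.23, lay below 0, though its adjusted p did not pass. The intervals of DACT2 and SFRP1 leave room for a doubling.

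**Figure D4:**
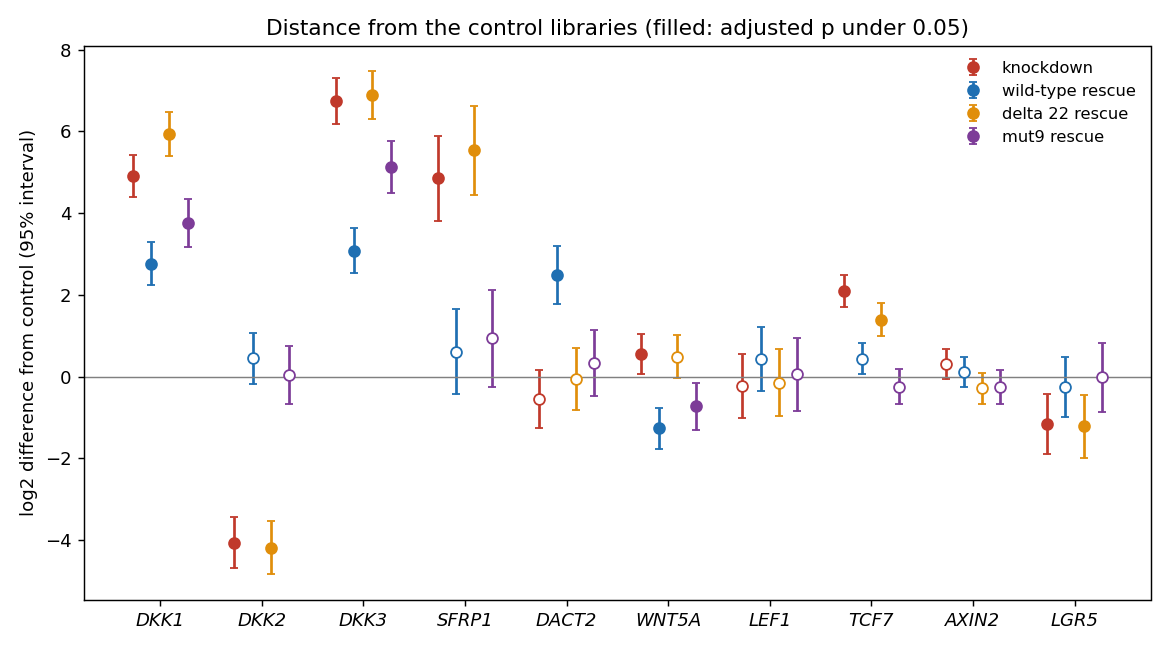
Log2 difference from control (vertical axis) with 95% intervals for the 10 genes (horizontal axis) in knockdown and the 3 rescue groups (colours), filled where limma's adjusted p was under 0.05. All 4 groups are compared with the same control libraries, and delta 22 lies beside knockdown for DKK2 (-4.18 and -4.06) while wild-type and mut9 rescue lie near 0.

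Mut9 rescue, in contrast, raised 2 members over knockdown (DKK2, LGR5) and lowered 6 (DKK1, DKK3, SFRP1, WNT5A, TCF7, AXIN2), where 23% of all genes were higher and 25.5% lower. The median difference was -0.85 for the members and close to 0 for all genes. Tested directly against wild-type rescue, DKK1 (1.00 ± 0.27, limma adjusted p = 0.0146) and DKK3 (2.05 ± 0.29, adjusted p = 0.000145) were higher and DACT2 and TCF7 lower, where 11.2% of genes were higher and 7.61% lower. The DKK1 call was lost without mut9 replicate 4 (0.85, adjusted p = 0.0858) and in batches 3 to 5 (0.78, adjusted p = 0.0779). Of all calls in that comparison 59.5% were higher, and 32.5% with median centring and 43.9% with quantile normalization. For DKK2 the difference of the mutant from wild type was -0.41 (interval -1.09 to 0.27) and for SFRP1 0.32 (interval -0.80 to 1.45), and neither passed. Against control, DKK1 (3.77 ± 0.28) and DKK3 (5.13 ± 0.30) were higher and WNT5A lower, where 23.5% of genes were higher and 18.9% lower. Here 55.4% of calls were higher, and 32.3% and 38.4% with the scalings, and quantile normalization added TCF7 and AXIN2 (-0.59) as lower.

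The 2 mutants differed from each other in 7 members, DKK2 (4.22 ± 0.34) and LGR5 (1.20 ± 0.40) higher and DKK1, DKK3, SFRP1, WNT5A and TCF7 lower in mut9 than in delta 22 rescue, where 23.4% of genes were higher and 25.8% lower. The LGR5 call did not hold without delta 22 replicate 1 (0.96) or mut9 replicate 4 (0.93). The widest of these gaps was SFRP1 (-4.60 ± 0.57, 24.3-fold, limma adjusted p = 1.91e-06). Delta 22 against wild-type rescue gave 5 members higher (DKK1, DKK3, SFRP1, WNT5A, TCF7) and 3 lower (DKK2, DACT2, LGR5), where 31.7% of genes were higher and 29.5% lower. DKK2 was 24.8-fold lower (-4.63 ± 0.30) and DACT2 5.79-fold lower (-2.53 ± 0.34). LGR5 lost this call without wild-type replicate 2 (-0.78) or delta 22 replicate 1 (-0.72), 2 (-0.91) or 3 (-0.92). In all, 51.9% of calls were higher there, and 40% with median centring and 41.9% with quantile normalization. Delta 22 against control gave 4 members higher (DKK1, DKK3, SFRP1, TCF7) and 2 lower (DKK2, LGR5), where 35.1% of genes were higher and 33.7% lower. The share of higher calls was 51%, and 37.9% and 39.3% with the scalings, which added AXIN2 as lower (-0.49 and -0.59). WNT5A was higher than control there without delta 22 replicate 4 (0.69) but not with it (0.49, adjusted p = 0.0906).

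To set genes beside each other, each level was divided by the gene's exon length in GENCODE 29 and is given as log2 per kilobase. On that scale DKK2 was the most abundant of the 10 in control (10.65), and SFRP1 the least (2.52). In knockdown DKK3 (11.72) and DKK1 (10.40) led, and DKK2 was sixth (6.58). DKK3 (11.87) and DKK1 (11.42) led in delta 22 rescue as well. Wild-type rescue had DKK2 (11.09) ahead of DACT2 (9.27), and mut9 rescue had DKK2 (10.68) ahead of DKK3 (10.11). By group mean, the most abundant Dickkopf transcript was therefore DKK2 in the control, wild-type and mut9 groups and DKK3 in the other groups. These rankings were not tested. In mut9 rescue (n = 3) DKK2 and DKK3 were close for their spread, with standard deviations of 0.56 and 0.22.

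Other genes of the pathway were counted by role from a list of 100, of which 75 were tested. With knockdown 45 were higher and 16 lower, where 35.5% of all tested genes were higher and 34% lower, and the counts by role below stand against the same shares. Of the 75 genes, 7 were under the level taken as measured in some libraries, and 6 had a control mean under it. Those 6 entered through groups where they are high, so no support is drawn from the totals over the 75 genes, here or below. Of 18 ligands listed, 11 passed the filter and were called higher, but 4 of these were under the level taken as measured in some libraries and in the control mean, so they entered through the groups where they are high and the count supports nothing. WNT5B rose by 5.64 ± 0.18 (49.9-fold). WNT7B, one of those 4, averaged 2.89 in control and 7.71 in knockdown. WNT9A rose by 4.19 ± 0.29 and WNT3 by 1.25 ± 0.13. Wild-type EWS/FLI lowered 7 of the 11 ligands and raised 0, where 32.3% of all genes were lower and 29.6% higher. Mut9 lowered 6 and raised 0 (25.5% and 23% of all genes), and delta 22 changed 0 (2.26% and 2.24%). The same 4 ligands are among the 11 here, so these counts support nothing either. WNT5B fell by 3.91 with wild type (difference -3.91 ± 0.17, limma adjusted p = 1.42e-12) and by 2.31 with mut9 (difference -2.31, adjusted p = 1.64e-08), and differed from knockdown by -0.16 with delta 22 (adjusted p = 0.684). Mut9 left WNT5B 1.59 above wild-type rescue (adjusted p = 4.11e-05).

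The other antagonists also went both ways. Of 7 tested, 2 were called higher with knockdown, DRAXIN (2.85 ± 0.28) and NOTUM, an enzyme that removes the lipid of Wnt proteins. NOTUM averaged 4.26 in knockdown and was under the level taken as measured in control (2.33), wild-type rescue (2.47), delta 22 rescue (3.19) and mut9 rescue (2.49), so its differences have no measured level to start from. Both other calls were falls, CER1 (-3.51 ± 0.31) and APCDD1 (-2.63 ± 0.26), a membrane inhibitor. Wild-type rescue raised APCDD1 (3.20 ± 0.24), CER1 (2.26 ± 0.29) and FRZB (1.73 ± 0.35), a Frizzled-related protein. Mut9 raised FRZB by 3.04, above its wild-type rescue level (1.30, limma adjusted p = 0.0308).

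Among 15 tested receptors, 7 rose and 6 fell with knockdown (35.5% and 34% of all genes). FZD7 (1.53 ± 0.11), FZD5 (1.60 ± 0.20) and FZD6 (1.40 ± 0.17) rose, and the co-receptor gene LRP6 (-1.06 ± 0.10) and FZD4 (-1.06 ± 0.16) fell. Wild-type rescue brought FZD6 (-1.88) and FZD7 (-1.04) down and LRP6 (1.10) and FZD4 (1.26) up, while FZD5 did not pass (-0.08, limma adjusted p = 0.729). In the R-spondin arm, 2 of 4 tested genes rose and 1 fell with knockdown. LGR4 (2.09 ± 0.11), a relative of LGR5, and RSPO3 (2.06 ± 0.48), a ligand of these receptors, rose. ZNRF3 fell (-0.35, limma adjusted p = 0.00158). LGR5, which is a member and not among these 4 genes, fell as well. Wild-type rescue lowered LGR4 (-1.74 ± 0.11) and RSPO3 (-2.46 ± 0.45) and raised RSPO2 (1.39 ± 0.23). Both tested genes of Wnt secretion rose with knockdown.

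**Figure D5:**
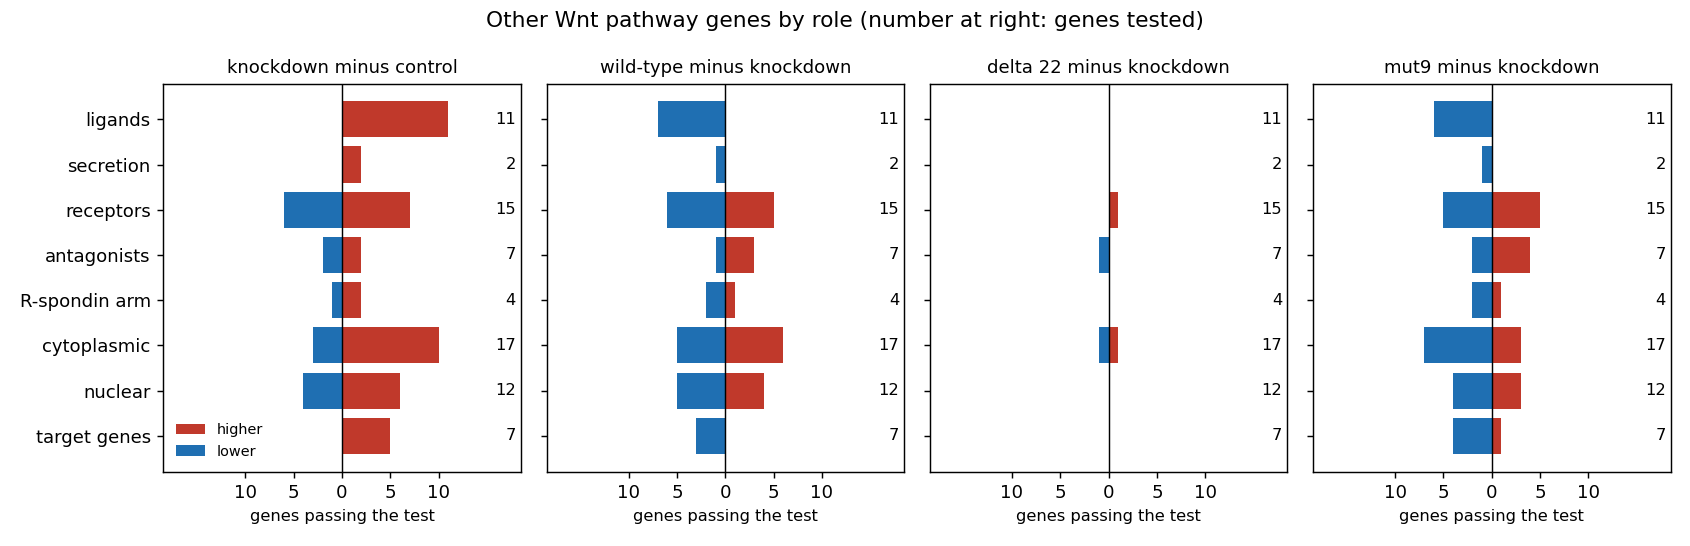
Number of other Wnt pathway genes called higher (right of 0) or lower (left of 0) by role (vertical axis) in 4 comparisons (panels), with the number tested printed at the right of each bar. The 11 ligands that passed the filter are called higher in knockdown, 4 of them from a control mean under the level taken as measured, 7 are lower in wild-type rescue than in knockdown, and the delta 22 panel holds 2 genes higher and 2 lower of 75.

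In the cytoplasm, 10 of 17 tested genes rose and 3 fell with knockdown. DACT1 rose by 1.99 ± 0.21 and DACT3 by 1.01 ± 0.17, and NKD2, a Dishevelled antagonist, fell (-2.24 ± 0.27). Wild-type rescue lowered DACT1 (-1.48 ± 0.20) and NKD1 (-1.24 ± 0.16) and raised NKD2 (2.61 ± 0.26), and DACT3 did not pass (0.03, limma adjusted p = 0.881). NKD1, a Dishevelled antagonist and pathway target, was also lowered by delta 22 (-1.06 ± 0.17, adjusted p = 0.00182) and by mut9 (-1.60 ± 0.19). Of 12 nuclear genes 6 rose and 4 fell, with TLE1 (1.28 ± 0.22) and TLE2 (-2.54 ± 0.27), both co-repressors of TCF factors, in opposite directions. BCL9L (1.38 ± 0.11), a beta-catenin co-activator, and TCF7L1 (1.18 ± 0.19), a mostly repressive TCF, rose with knockdown like TCF7. Unlike TCF7, TCF7L1 stayed high, at 7.53 in wild-type and 7.83 in mut9 rescue, against 7.75 in knockdown and 6.57 in control. Of 7 tested target genes, 5 rose and 0 fell with knockdown, led by TNFRSF19 (3.84 ± 0.32) and FOSL1 (3.79 ± 0.22), with JUN (2.04 ± 0.27). PROX1 was also called, from a control mean of 2.81 under the level taken as measured to 4.35. It entered through groups where it is high, so the count of targets supports nothing. TNFRSF19 averaged 3.53 in control, little above that level, and its lowest control library (3.29) was under it. CCND1 (0.04) and BAMBI (0.11) did not pass. These targets also answer to other pathways. Wild-type rescue lowered TNFRSF19 (-3.69 ± 0.30), FOSL1 (-2.71 ± 0.21) and JUN (-1.26 ± 0.25). Over all roles, wild-type rescue raised 19 and lowered 30 of the 75 genes, where 29.6% of all genes were higher and 32.3% lower. Mut9 rescue raised 17 and lowered 31 (23% and 25.5% of all genes), and delta 22 raised 2 and lowered 2 (2.24% and 2.26% of all genes), the latter near the background.

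For each member whose group means spanned at least 1, the most similar genes over the 21 libraries were found by the root mean square difference of centred log2 values. MVP (0.44) and LRRC32 (0.49) were nearest to DKK1, DLG2 (0.31) to DKK2, and HTRA1 (0.37) and COL6A2 (0.47) to DKK3. TFAP2C (0.50) and HAS2 (0.52) were nearest to SFRP1, and CD36 (0.48) and SMOC2 (0.54) to DACT2. WNT5A was nearest to VEGFA (0.37) and ASL (0.38), LGR5 to EMILIN3 (0.33) and DLX6-AS1 (0.34), and TCF7 to KCNMA1-AS1 (0.28) and FAM43A (0.31). KCNMA1-AS1 averaged under the level taken as measured in control (2.54), wild-type rescue (2.83) and mut9 rescue (2.50). It was above that level on average only in knockdown (4.38) and delta 22 rescue (4.00). HAS2 was under it on average in control (3.14), so both likenesses rest in part on values not taken as measured. The members' own root mean square deviations ran from 0.73 for LGR5 to 2.61 for DKK3, so the likeness is closer for DKK2 and DKK3 than for LGR5. Whether reads were counted by strand is not given in the sources used here, so the 2 antisense transcripts named cannot be told apart from their partner genes.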

How the data were processed

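RNA from A673 cells (2.5 ug per library) was sequenced after ScriptSeq library preparation, per the labels' protocols. Per the submitters' processing notes, the authors worked on hg19 and used DESeq2, HTSeq, STAR 2.5.2b and bcl2fastq. What they deposited is 1 table of log2 expression values, already normalized. These resemble regularized logarithms (from -4.09 to 20.22, with 17358 genes at exactly 0 in all libraries), which draw low values together, so differences of low genes may be understated. No pseudocount was added, and the level of 10 was applied as log2(10). Ensembl IDs were joined to symbols (51996 matched, 5824 not). Genes with at least 3 libraries at that level were tested (18040) in limma 3.58.1 (trend, R 4.3.3), with 1 mean per group over all 21 libraries. Calls are adjusted p under 0.05 after Benjamini-Hochberg, and limma was tested on simulated data.

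The members and lists were chosen with earlier results of these data known. Named were all members, other pathway genes (up to 4 per role with a difference of at least 1 in the knockdown or wild-type rescue comparison, lowest adjusted p in each) and 2 similar genes per member, of which 1 is not reported here. The replicate number is the labelled batch, so it pairs libraries. Over 34 pairs sharing a number, deviations from group means correlated at 0.20 on average (24 above 0.1), against -0.05 for 141 other pairs. Values with the batch as a block stand beside results where they change a call. Alternatives were other filters, scalings, the block, the compared groups only, array weights, batches 3 to 5 and leaving out each library. No libraries were identical (highest correlation 0.9978, 0 genes equal in that pair). Promoter windows came from RefSeq (GRCh38.p14) and exon lengths from GENCODE 29.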

Additional observations from a re-analysis of the deposited data

Results flagged for a closer look

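AXIN2 in wild-type rescue replicate 3 stood apart, at 7.46 against 7.82 for the nearest and 7.95 for the highest of the other 4 wild-type libraries, a gap of 0.731 of the group's range where 0.71 is the critical value for 5 libraries. Without that library, delta 22 minus wild-type rescue for AXIN2 was -0.48 and passed the test. LGR5 in wild-type rescue replicate 2 was high, at 8.56 against 7.77 for the nearest and 7.53 for the lowest, a gap of 0.772 of the range. Without it, the rise of LGR5 with wild-type rescue was 0.73 and did not pass. Of 40 groups of 4 or 5 libraries examined over the 10 genes, 2 stood out in this way, and chance alone marks about 1 in 20.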

How the results depend on the processing

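Over 29 alternatives, 44 of the 57 called member differences (of 100) were kept under every one, 13 were lost under at least 1, and 0 were reversed. Of the 43 not called, 16 passed under at least 1. Calls that leaving out 1 library ended stand beside each result. Without the filter (40462 genes) the percentages of all genes called were 34.2 for knockdown minus control, 29.5 for wild-type rescue, 1.51 for delta 22 and 21.8 for mut9 minus knockdown, 15.9 for wild-type rescue, 33.1 for delta 22 and 17.2 for mut9 minus control, 28.5 for delta 22 and 6.28 for mut9 minus wild-type rescue, and 21.5 for mut9 minus delta 22 rescue, since genes at very low levels were then also tested. For delta 22 minus knockdown the replicate block gave 7.16%, the compared groups only 1.45% and batches 3 to 5 0.0831%, with 2 delta 22 and 3 knockdown libraries there. For mut9 minus wild-type rescue array weights gave 29% and batches 3 to 5 9.67%, and for wild-type rescue minus control batches 3 to 5 gave 25.4%. For delta 22 minus knockdown 1 member, DKK1, was called without the filter, with quantile normalization and with the compared groups only, and 0 in batches 3 to 5. Leaving out single libraries gave 0 to 2 there and 2 to 4 for mut9 minus wild-type rescue. Quantile normalization gave 5 members for mut9 minus control. Batches 3 to 5 also ended TCF7 in delta 22 minus knockdown (-0.99) and minus wild-type rescue (0.53), and LGR5 in delta 22 minus wild-type rescue (-0.40), mut9 minus delta 22 rescue (0.77) and delta 22 minus control (-0.91). The block changed the calls named in the report and no other member call. The causes were not tested, and read depth is unknown, so what depth limits cannot be stated.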
